A study of Mus musculus with 8 samples.

Results

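The 2 mature arms of the mouse microRNA miR-22, mmu-miR-22-3p and mmu-miR-22-5p, were followed through 8 small RNA libraries of bone-forming cells and bone. They are 2 of the 1418 entries of the deposited tables, which cover 1281 mature miRNAs. They were chosen by name, with their measured levels in all 8 libraries already known, so their differences are described here and carry no test. The 3 calvaria libraries hold the parietal and frontal bones of the skull vault of female C57BL/6 mice, 2 to 3 days old and carrying Prrx1-Cre, taken after a short digestion with collagenase and trypsin. Prrx1-Cre drives the recombinase in limb bud and part of the cranial mesenchyme; the labels name no floxed allele with it, and do not say whether each library is 1 animal. The 5 MC3T3 libraries hold MC3T3 E1 sc4, a clonal pre-osteoblast line from C57BL/6 mouse calvaria at passage 10 to 15, titled as undifferentiated at day 0 and as differentiated at days 6, 10, 17 and 24 of culture with ascorbic acid and β-glycerol phosphate. RNA from 3 cultures was pooled for each day, so each day is 1 library and no day has a replicate. Calvaria is a mixed tissue and MC3T3 a single line; in bulk libraries fewer cells of a type and less RNA per cell cannot be told apart.

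MicroRNAs are cut from a hairpin precursor as a short duplex, of which 1 arm is usually kept in an Argonaute protein while the other is discarded. The kept guide arm pairs with target transcripts through its seed, bases 2 to 8, and lowers their output. miR-22-3p is the usual guide of its hairpin and miR-22-5p the usual passenger. miR-22 is abundant in heart and skeletal muscle, has been described as a regulator of the DNA demethylase Tet2 in mouse, and has been reported to promote osteogenic differentiation of human adipose-derived mesenchymal stem cells by targeting the deacetylase HDAC6. These points are background and were not measured here.

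The mature sequences are shown because the counts of both arms rest on them; they were taken from RefSeq on GRCm38.p6, 5′ to 3′, with the seed in capitals.
mmu-miR-22-3p: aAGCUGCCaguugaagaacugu
mmu-miR-22-5p: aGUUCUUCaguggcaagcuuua
The precursor, in which the capitals mark first the 5p and then the 3p arm, reads as follows.
Mir22: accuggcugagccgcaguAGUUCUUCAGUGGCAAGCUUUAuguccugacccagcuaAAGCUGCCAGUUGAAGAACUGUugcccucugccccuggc
The hairpin of 95 bases lies on the plus strand of mm10 (GRCm38) chromosome 11, 75463716 to 75463810. In the GENCODE annotation this is inside exon 2 of the non-coding host gene Mir22hg (75461539 to 75466676), not in an intron. The 5p arm spans hairpin bases 19 to 40 (75463734 to 75463755) and the 3p arm bases 57 to 78 (75463772 to 75463793), with 16 bases between them. In the predicted minimum free energy fold, 19 base pairs joined the 2 arms of 22 bases each. No other mature miRNA among the 1738 entries of the RefSeq table shares bases 2 to 8 with either arm. The longest run shared with any other hairpin was 9 bases for miR-22-3p and 10 bases for miR-22-5p. All 16 counts of the pair were whole numbers (within 0.005), and each arm has a single precursor, so no division of reads between copies is visible in them.

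The guide arm was lower in calvaria than at any stage of the cell line, by a factor of about 2 to 3. miR-22-3p had 6166, 5906 and 5543 RPM (counts scaled by the library total) in the 3 calvaria libraries, against 17269, 12004, 11852, 18544 and 18807 RPM in MC3T3 at days 0, 6, 10, 17 and 24. The highest calvaria value was 0.52 of the lowest MC3T3 value, at day 10, so the groups did not overlap. The mean was 5872 ± 313 RPM in calvaria (SD, n = 3), against 15695 ± 3488 RPM in MC3T3 (SD over 5 days). miR-22-3p ranked 31st to 33rd among all mature miRNAs in calvaria, against 10th at day 0, 20th at day 6, 21st at day 10, 14th at day 17 and 15th at day 24 in MC3T3. It thus took 0.554% to 0.617% of counts in calvaria, against 1.19% to 1.88% in MC3T3.

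The passenger arm was far less abundant and had the same order of groups. miR-22-5p had 65.9, 59.8 and 69.2 RPM in calvaria (78, 121 and 93 counts), against 199.2, 103.9, 104.0, 160.6 and 155.3 RPM in MC3T3 at days 0, 6, 10, 17 and 24 (803, 328, 323, 633 and 426 counts). The 3 calvaria libraries again lay below all 5 MC3T3 libraries. Here the gap was narrower: the highest calvaria value was 0.665 of the day 10 value and 0.666 of the day 6 value. The mean was 65.0 ± 4.8 RPM in calvaria (SD, n = 3), against 144.6 ± 40.8 RPM in MC3T3 (SD over 5 days).

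**Figure D1:**
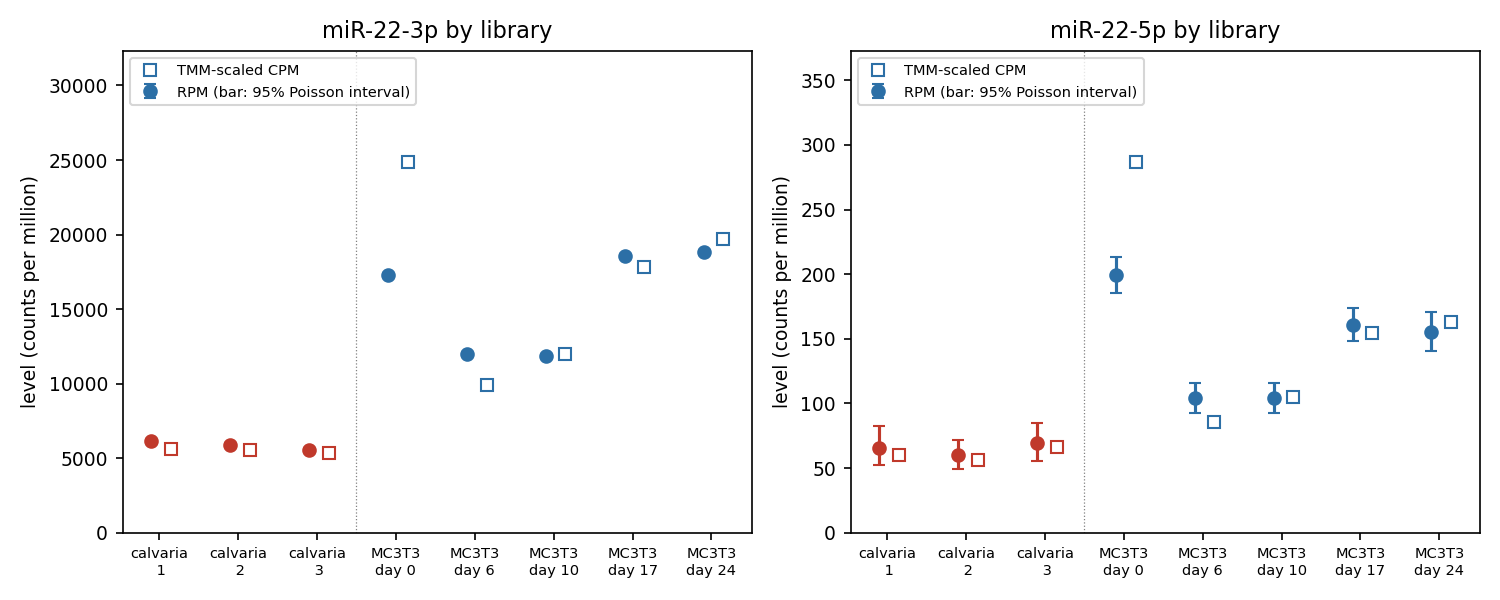
Level of miR-22-3p (left) and miR-22-5p (right) in each library: filled circles give RPM with exact 95% Poisson intervals, open squares give CPM after TMM scaling. All 3 calvaria libraries (red) lie below all 5 MC3T3 libraries (blue), and days 6 and 10 are the lowest MC3T3 days for both arms and on both scales.

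Such a difference was common in these libraries. Of 551 entries with at least 10 counts in 3 or more libraries, 25.6% had all 3 calvaria libraries below all 5 MC3T3 libraries in RPM, as both arms did. On CPM scaled with trimmed mean of M values (TMM) factors, which reduce the weight of a few dominant miRNAs, it was 32.8%, again with both arms among them. On the TMM scale miR-22-3p averaged 5504 ± 156 CPM in calvaria, against 16860 ± 6022 CPM in MC3T3, and miR-22-5p 61.0 ± 5.1 CPM in calvaria, against 159.0 ± 78.4 CPM in MC3T3.

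The edgeR quasi-likelihood fit over all 551 entries gave miR-22-3p a log2 difference, calvaria minus MC3T3, of -1.62 ± 0.30 (SE), and miR-22-5p one of -1.38 ± 0.39. From the most negative upward these were positions 75 and 99 of 551. Of the 90 tested entries with a mean of at least 1000 RPM, miR-22-3p had the 10th lowest log2 difference. The median log2 difference of all entries depended on the scaling, at -0.13 for TMM, 0.18 for the size factors of DESeq2, -0.61 for the upper quartile and 0.01 for library totals. Measured from that median, the log2 difference of miR-22-3p was -1.48, -1.47, -1.50 and -1.43 under the same scalings, and that of miR-22-5p -1.25, -1.24, -1.26 and -1.17. A scaling factor shifts all entries almost alike, so these values lie close together by construction.

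**Figure D2:**
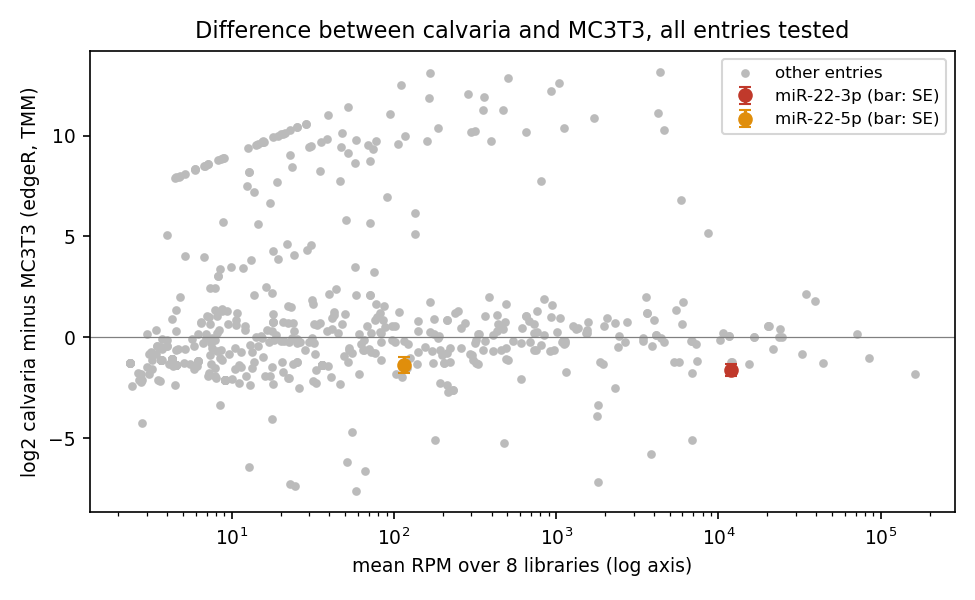
Fitted log2 difference (calvaria minus MC3T3, TMM scaling) against mean RPM for all entries tested; the coloured points are the miR-22 arms with their SE. miR-22-3p lies at -1.62 and miR-22-5p at -1.38, below the median of -0.13 but well inside the spread of the other entries.

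The gap to calvaria differed between days. In RPM the calvaria mean of miR-22-3p was 0.34 of its day 0 level, 0.489 of day 6, 0.495 of day 10, 0.317 of day 17 and 0.312 of day 24. For miR-22-5p the same fractions were 0.326, 0.625, 0.625, 0.405 and 0.418. On the TMM scale they were 0.221, 0.555, 0.459, 0.309 and 0.279 for miR-22-3p and 0.213, 0.71, 0.58, 0.395 and 0.375 for miR-22-5p. Calvaria was thus closest to days 6 and 10 for both arms on both scales. The day furthest from calvaria was day 24 in RPM and day 0 on the TMM scale for miR-22-3p, and day 0 on both scales for miR-22-5p. Set against days 17 and 24 only, the fitted log2 difference was -1.99 ± 0.13 for miR-22-3p and -1.61 ± 0.19 for miR-22-5p.

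The calvaria libraries were close to each other in miR-22-3p. Its SD of log2 TMM-scaled CPM over the 3 libraries was 0.04, the 10th smallest of 446 miRNAs with a mean of 10 counts or more, whose median SD was 0.27. The SD of miR-22-5p was 0.12, at position 71. Scarce miRNAs among the 446 vary more by counting error alone, and no rank was taken at like depth. The SD of log2 RPM was 0.077 for miR-22-3p and 0.107 for miR-22-5p. In RPM the highest calvaria value was 1.11 times the lowest for miR-22-3p and 1.16 times for miR-22-5p. Summed markers of most other cells these libraries could hold varied more in RPM, and those of the nervous system about as little. The summed endothelial markers miR-126-3p and miR-126-5p ran from 9028 to 20323 RPM in calvaria, against 6.2 to 19.0 RPM in MC3T3. Cartilage markers (miR-140 and miR-455, 4 arms) summed to 61235 to 111611 RPM in calvaria, against 18218 to 28775 RPM in MC3T3. Blood cell markers, 8 of them in the table, summed to 312 to 464 RPM in calvaria, against 38.9 to 110.6 RPM in MC3T3. Most of the MC3T3 sum was miR-486-5p, at 36.5 to 107.1 RPM there and 53.1 RPM on average in calvaria. By contrast, miR-451a and miR-142-3p averaged 124.1 and 50.3 RPM in calvaria, against 0.44 and 0.17 RPM in MC3T3. Striated muscle markers, 7 in the table, summed to 283 to 642 RPM in calvaria, against 213 to 574 RPM in MC3T3; of these miR-208a-3p and miR-208b-3p had no count in any library. Nervous system markers, 4 in the table, summed to 603 to 685 RPM in calvaria, against 329 to 460 RPM in MC3T3. miR-144-5p of the blood list and miR-124-3p of the nervous system list had no count in MC3T3. The part that these other cells had in the lower miR-22 level of calvaria was not tested.

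Within the MC3T3 course, both arms were lowest at days 6 and 10. In RPM miR-22-3p stood at 0.695 of its day 0 level at day 6 (95% interval 0.686 to 0.704), barely moved to day 10 (ratio to day 6 of 0.987, 0.973 to 1.002), was 1.56 times higher at day 17 than at day 10 (1.55 to 1.58) and then stayed close to that level at day 24 (ratio to day 17 of 1.014, 1.003 to 1.026). The corresponding ratios of miR-22-5p were 0.522 (0.458 to 0.594), 1.001 (0.856 to 1.171), 1.54 (1.35 to 1.77) and 0.967 (0.853 to 1.095). Even by counting error alone, days 6 and 10 cannot be ordered for either arm in RPM, nor can days 17 and 24 for miR-22-5p, since those intervals hold 1. For miR-22-3p the ratio of day 10 to day 6 changed sides with the scale. It was 1.21 (1.19 to 1.23) with TMM and 0.972 (0.958 to 0.986) with miR-21a-5p left out of the totals. The intervals are exact binomial ones for the ratio of counts in 2 libraries and cover counting error only, as no day has a replicate.

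This dip was uncommon in RPM. Of 469 entries with at least 10 counts in 2 or more MC3T3 libraries, 13 (2.77%) had both days 6 and 10 below each of days 0, 17 and 24, and the miR-22 arms were 2 of them. With TMM scaling 48 entries (10.2%) did, again including both arms. The grouping of the days was chosen after the levels were seen.

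The day 0 library decides how the ends of the course compare. At day 0 miR-21a-5p took 45.5% of all counts, against 11.2% to 20.1% on later days and 5.4% to 9.7% in calvaria, which lowers the RPM of every other miRNA in that library. In RPM miR-22-3p at day 24 was 1.09 times its day 0 level (1.08 to 1.10). With TMM scaling, whose factor was 0.69 for day 0, the same ratio was 0.792 (0.784 to 0.802), and with miR-21a-5p left out of the totals it was 0.682 (0.674 to 0.689). For miR-22-5p the ratio was 0.78 (0.692 to 0.878) in RPM, 0.568 (0.503 to 0.639) with TMM and 0.488 (0.433 to 0.55) without miR-21a-5p. The highest day of miR-22-3p was accordingly day 24 in RPM (18807) and day 0 on the TMM scale (24868 CPM, against 19708 CPM at day 24). The first step was also larger on the TMM scale, with day 6 at 0.399 of day 0 for miR-22-3p and 0.299 for miR-22-5p. The step from day 10 to day 17 depended less on the scale: day 17 over day 10 was 1.56 in RPM, 1.49 with TMM and 1.43 without miR-21a-5p for miR-22-3p, and 1.54, 1.47 and 1.41 for miR-22-5p.

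A straight line over the 5 days described this course poorly. The fitted 24-day log2 change was 0.00 ± 0.47 (SE) for miR-22-3p and -0.45 ± 0.59 for miR-22-5p, against a median of -0.12 over all 469 entries. Without the day 0 library the fitted changes were 1.36 ± 0.40 for miR-22-3p and 1.27 ± 0.41 for miR-22-5p. Leaving out any other day gave -0.49 to 0.00 for miR-22-3p and -1.05 to -0.45 for miR-22-5p.

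The 2 arms were each other's closest match. Courses were compared as log2 TMM-scaled CPM centred on their own mean over the 8 libraries, among 445 other miRNAs. The root mean square difference between miR-22-3p and miR-22-5p was 0.21 log2 units, the smallest for either arm, against medians of 1.07 and 1.02 over all miRNAs compared. Next to miR-22-3p came miR-423-5p (0.33), miR-29b-3p (0.34), miR-143-3p (0.35) and let-7c-2-3p (0.37). Next to miR-22-5p came miR-143-3p (0.34), miR-28c (0.34), miR-30a-5p (0.35) and let-7e-3p (0.36). Of these, miR-28c (4.65 to 5.96 RPM in calvaria) and let-7e-3p (8.9 to 16.1 RPM) rest on few counts there. The points share library, depth and scaling factor.

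Of these, miR-29b-3p, a miRNA that targets collagen transcripts, had both the low calvaria level and the dip in RPM. It stood at 26.2, 12.2 and 14.9 RPM in calvaria, against 75.2, 41.2, 45.4, 82.1 and 63.1 RPM in MC3T3 at days 0, 6, 10, 17 and 24. miR-143-3p, a miRNA of smooth muscle and other mesenchymal cells, shared the gap between materials but had no dip in RPM. It had 52572, 50332 and 64103 RPM in calvaria, against 87473, 98901, 97123, 117479 and 111964 RPM in MC3T3. On the TMM scale used for the match it was lowest in MC3T3 at days 6 and 10. Its centred log2 values were 0.01 and 0.28 there, against 0.63, 0.48 and 0.53 at days 0, 17 and 24. miR-30a-5p was highest at day 0 and lower at each later day in RPM. It had 9095, 8786 and 9130 RPM in calvaria, against 29507, 20310, 17582, 15052 and 14411 RPM in MC3T3. miR-423-5p, next to miR-22-3p after the other arm, had no dip in RPM. Its levels were 210.5, 195.3 and 151.1 RPM in calvaria, against 341.0, 449.1, 418.1, 409.6 and 447.4 RPM in MC3T3. In MC3T3 let-7c-2-3p was highest at day 6 in RPM (317.5). A close match over the 8 libraries can thus hold without the same day course.

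**Figure D3:**
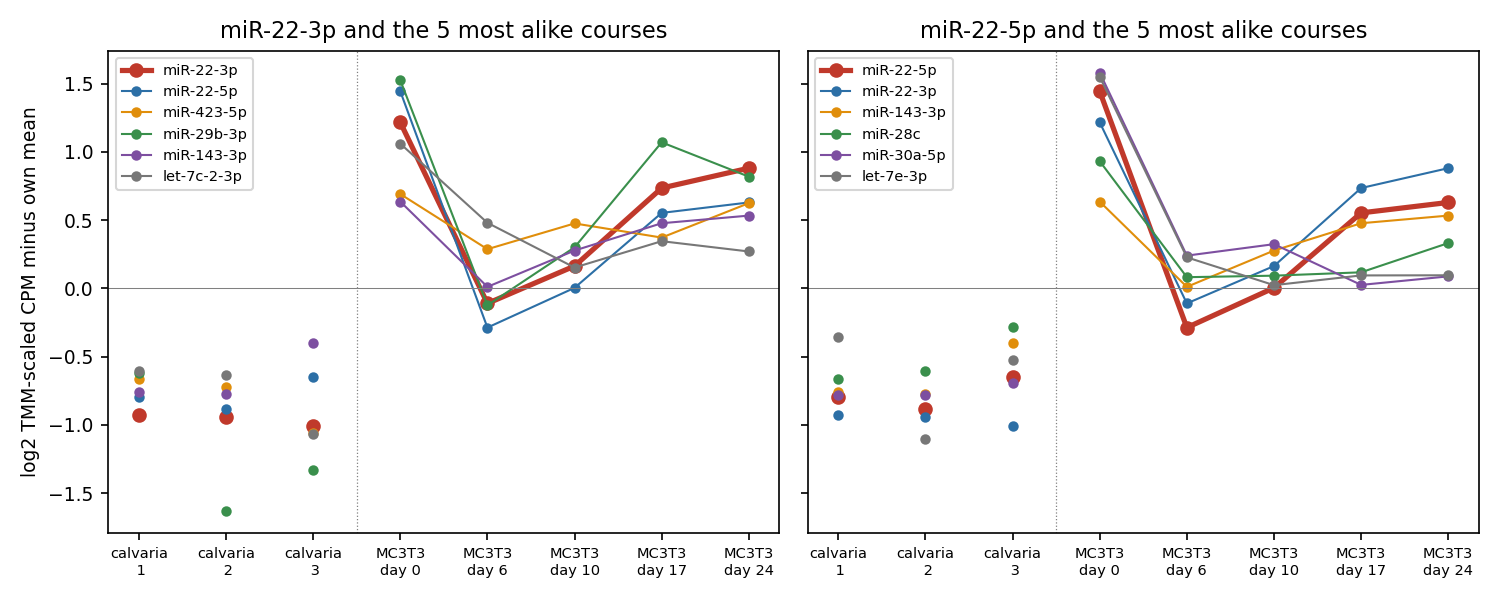
Log2 TMM-scaled CPM of miR-22-3p (left, thick red) and miR-22-5p (right, thick red) with the 5 miRNAs whose courses differ least from each, every course centred on its own mean; the calvaria libraries are separate points and the MC3T3 days are joined. The other arm of miR-22 is the closest course in both panels, with a root mean square difference of 0.21.

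The ratio of the arms was high everywhere and lowest at day 0 within the cell line. There were 93.5 (95% interval 74.8 to 118.5), 98.7 (82.6 to 119.1) and 80.1 (65.3 to 99.3) counts of miR-22-3p per count of miR-22-5p in calvaria, against 86.7 (80.9 to 93.1), 115.5 (103.6 to 129.1), 113.9 (102.1 to 127.5), 115.4 (106.7 to 125.0) and 121.1 (110.1 to 133.5) in MC3T3 at days 0, 6, 10, 17 and 24. The passenger arm thus made up 1.003% to 1.23% of the hairpin's counts in calvaria, against 1.14% at day 0 and 0.819% to 0.870% at days 6 to 24 in MC3T3. The interval of day 0 did not touch those of the 4 later days, which overlapped each other. The calvaria intervals held the day 0 value, and the ratio in all 3 calvaria libraries lay below the 4 later days, although the intervals of calvaria 1 and 2 reach them.

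A ratio within a library does not change with the scaling of that library. On the log2 scale it averaged 6.49 ± 0.16 in calvaria (SD, n = 3), against 6.78 ± 0.19 in MC3T3 (SD over 5 days), a difference of -0.29. Leaving out single libraries gave -0.37 (without day 0) to -0.20 (without calvaria 3). In 45 of 162 hairpins (27.8%) the 3p to 5p ratio at day 0 lay below all 4 later days, so the direction alone was frequent. The 162 are not all separate measurements, since copies of mir-669a, mir-467a and mir-466c have the same values and each copy is included.

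**Figure D4:**
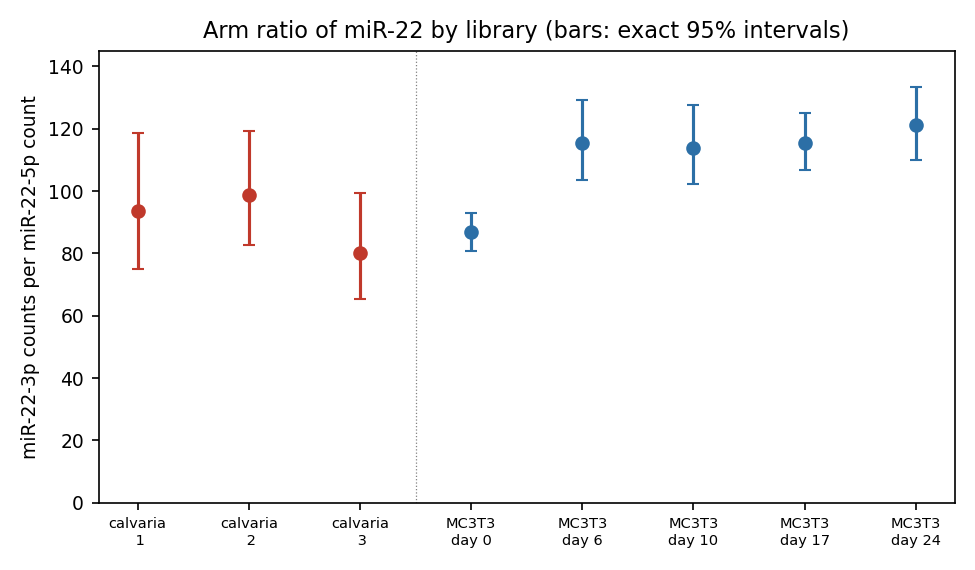
Counts of miR-22-3p per count of miR-22-5p in each library with exact 95% binomial intervals. The MC3T3 value at day 0 is 86.7, days 6 to 24 lie at 113.9 to 121.1, and calvaria at 80.1 to 98.7.

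Among the 162 hairpins with a mean of 10 counts or more for each arm, the 3p arm was the higher one in 59. Here too, and in the medians over the 162, each copy with the same values is included. mir-22 had the 7th highest mean log2 ratio of 3p to 5p (6.67), after mir-25 (7.02) and before mir-378a (6.54). The median absolute log2 ratio was 3.11. The ratio of mir-22 was also among the steadiest. It ranged over 0.60 log2 units across the 8 libraries, the 6th smallest range of 162, whose median was 1.67. Scarce arms vary more by counting error alone. Among the 37 hairpins with at least 300 counts on average in the scarcer arm, a minimum chosen after the values were seen, mir-22 had the 5th smallest range and the median was 1.37.

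**Figure D5:**
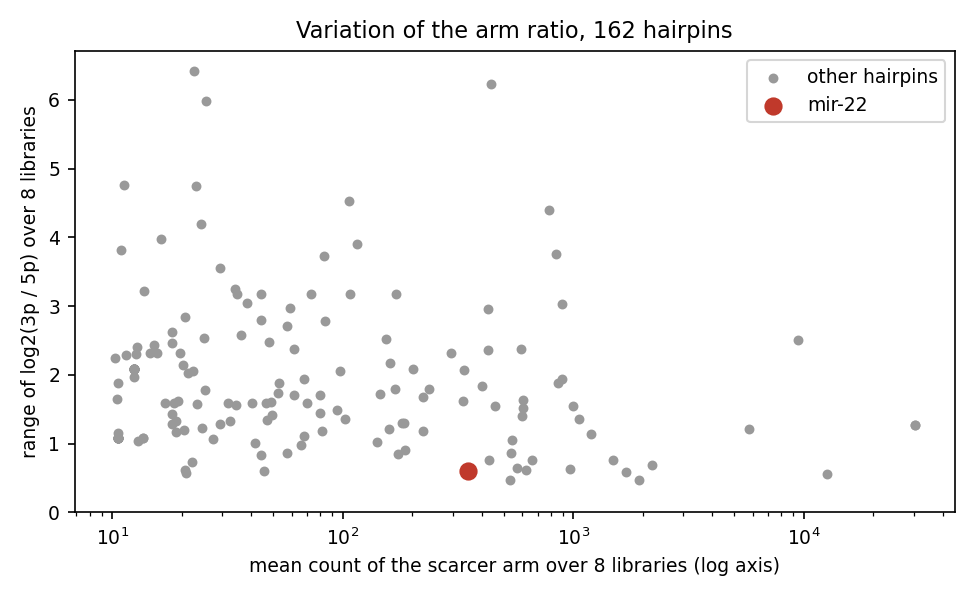
Range of the log2 ratio of 3p to 5p counts over the 8 libraries against the mean count of the scarcer arm, 1 point per hairpin. mir-22 (red) has a range of 0.60 against a median of 1.67 over the 162 hairpins.

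Other miRNAs reported to act in osteoblast differentiation were read from the same fits. Of 12 listed as promoting it, 9 were tested between materials, none was higher in calvaria and 4 were lower at an adjusted p under 0.05 in edgeR. Of all entries, 32.7% passed as higher in calvaria and 33.8% as lower. The 12 tested precursor entries of the list had a median log2 difference of -1.88, against -0.13 over all entries. miR-29a-3p was lower, with 646 ± 73 RPM in calvaria (SD, n = 3) and 3284 ± 900 RPM in MC3T3 (log2 -2.51 ± 0.30, adjusted p = 3.61e-05 in edgeR). The other 3 were miR-29b-3p, miR-29c-3p and miR-196a-5p, named after their values were seen. miR-218-5p had 2089 ± 181 RPM in calvaria and 2375 ± 1102 RPM in MC3T3, and miR-20a-5p 1900 ± 255 RPM in calvaria and 1352 ± 623 RPM in MC3T3; neither passed. Over the 17 settings tried, 0 to 2 of the list were higher in calvaria and 4 to 6 lower.

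Of 19 listed as restraining osteoblast differentiation, 15 were tested, 2 were higher in calvaria and 7 lower. Their 20 tested precursor entries had a median log2 difference of -0.32. Over the 17 settings tried, 1 to 5 miRNAs of this list were higher, with 1 when any calvaria library was left out, and 7 to 10 lower. The 2 higher ones were miR-23a-3p and miR-133a-3p, named after their values were seen. Neither of the 2 precursor entries of miR-133a-3p reached 10 counts in 2 MC3T3 libraries, so the filter fixed their direction. These entries were not tested when a calvaria library was left out. Summed over its precursors, miR-133a-3p did reach 10 counts in at least 2 MC3T3 libraries. miR-34c-5p, a target of p53, was lower (log2 -5.08 ± 0.23, adjusted p = 4.48e-08 in edgeR), at 348 ± 39 RPM in calvaria and 10792 ± 2443 RPM in MC3T3. miR-125b-5p was lower at both precursors (log2 -1.24 and -1.21), at 6419 ± 782 RPM in calvaria and 13756 ± 3866 RPM in MC3T3. miR-24-3p did not pass, at 9016 ± 1704 RPM in calvaria and 7732 ± 1487 RPM in MC3T3. The lower counts of both lists are read against the split of all calls, which was 180 higher and 186 lower with TMM, 216 and 128 when size factors came from DESeq2, 143 and 251 for the upper quartile and 179 and 137 for library totals.

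With the linear day trend, 1.28% of all entries rose and 1.71% fell in edgeR. Of the promoting list 1 of 9 tested rose (miR-210-3p, induced by hypoxia) and 1 fell (miR-196a-5p), both calls being lost with limma and without the day 6 library, and that of miR-196a-5p also with library totals and without day 17. Of the restraining list none of 14 passed. Over the 13 settings tried, 0 to 3 of the promoting list rose and 0 to 2 fell. For the restraining list these numbers were 0 to 1 and 0 to 1. Without the day 0 library miR-29a-3p, miR-29b-3p and miR-27a-3p also rose and miR-20a-5p fell, named after their values were seen. By the same test between materials, 2 of 4 striated muscle, 6 of 7 blood cell, 2 of 2 endothelial and 4 of 4 cartilage miRNAs were higher in calvaria, 1 blood cell miRNA (miR-486-5p) was lower and neither of 2 nervous system miRNAs passed. Of these, 6 blood cell miRNAs and miR-126-5p of the endothelial list did not reach 10 counts in 2 MC3T3 libraries. Nor did either precursor entry of miR-133a-3p of the striated muscle list. All of them were tested only because of their calvaria counts, so the filter fixed their direction. The call of miR-486-5p was lost in 11 of 17 settings. Without any 1 of the 3 calvaria libraries the higher miRNAs numbered 1 of the striated muscle, 1 of the blood cell and 1 of the endothelial list. The filter still asked for 3 libraries, so miRNAs that reached 10 counts only in calvaria were not tested there. With the size factors of DESeq2, and without calvaria 1, miR-9-5p and 1 of the 2 precursor entries of miR-128-3p passed as higher in calvaria. miR-9-5p also passed as higher with the DESeq2 Wald test. Every tested entry of miR-128-3p passed as higher without the day 0 library. With upper quartile factors 3 cartilage miRNAs were higher. With day, 1 of 3 striated muscle miRNAs rose (miR-499-5p, named after its values were seen). That call was lost with limma, with counts summed per mature miRNA and without day 6. None passed of 1 blood cell, 1 endothelial, 4 cartilage and 2 nervous system miRNAs. In other settings miR-1a-3p rose (DESeq2 Wald test), miR-206-3p fell (no count filter, and without day 24) and miR-126-3p fell (without day 0).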

How the data were processed

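Per the labels' protocols, libraries were prepared with a NEBNext kit for small RNA. The authors deposited 1 table of estimated counts, with an entry for each pair of mature arm and precursor; counts were rounded for the fits. The deposited normalized table holds RPM, and each value equals the count over its library total within 0.013 RPM. cutadapt 0.9.5, Bowtie 0.12.7 and mm10 are named in the submitters' processing notes, with no role or order; no quantifier or miRBase release is stated there. MC3T3 columns are named with days 3 lower than the titles, which were followed. The 4 later names also carry "veh", a tag with no explanation in the labels.

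Library totals ran from 1183011 to 2023036 counts in calvaria, and from 2742368 to 4031962 in MC3T3. Single-library intervals are exact 95% Poisson or binomial (Clopper-Pearson) intervals. Reads carry no molecular identifiers, so they cover counting error only.

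Entries needed 10 counts in at least 3 of 8 libraries (calvaria against MC3T3) or in at least 2 of 5 (linear day trend, 3 residual degrees of freedom, slope times 24). Both used edgeR 4.0.16 in R 4.3.3 (glmQLFit, TMM, Benjamini-Hochberg over all entries, threshold 0.05), tested on simulated data. TMM-scaled CPM used the factors of all 8 libraries. Centred courses used a prior count of 2, and arm ratios on the log2 scale one of 0.5. The fold was predicted with ViennaRNA 2.7.2. Since no label ties a calvaria library to an animal of its own, p-values cover the spread between libraries, which may be technical in calvaria. In the fit of calvaria against MC3T3 the 5 days, with 1 library each, stood in for replicates. The MC3T3 spread there thus holds the differences between days. Alternatives were DESeq2 1.42.0, limma 3.58.1, other scalings and filters, and leaving out single libraries. Named were both arms, miR-21a-5p, the 5 most alike courses per arm, the hairpins next to mir-22 by arm ratio and the 3 most abundant members of each list. The members and lists were chosen with earlier results of these data known.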

Additional observations from a re-analysis of the deposited data

Results flagged for a closer look

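Among the 5 MC3T3 libraries, the ratio of miR-22-3p to miR-22-5p counts at day 0 (86.7) stood further from the others than Dixon's 95% critical value for 5 values (0.71) allows, the next lowest being 113.9 at day 10. The 5 libraries are different days and not replicates, and the arms were chosen with their levels known. The gap is thus a flag for a closer look and not a test. Such a gap turns up by chance in about 1 in 20 single groups of values. The same check was made on the levels of both arms in RPM and in TMM-scaled CPM. A flag somewhere among all these groups therefore turns up by chance more often than that. The day 0 library is also the one with 45.5% of its counts in miR-21a-5p; the part of that in the ratio was not tested. No level of either arm, in RPM or in TMM-scaled CPM, stood apart in this way.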

How the results depend on the processing

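Both arms were lower in calvaria under all 16 alternatives, with a log2 difference of -2.11 to -1.29 for miR-22-3p and of -1.87 to -1.03 for miR-22-5p. It moved by more than the spread between libraries once, for miR-22-3p with upper quartile factors (-2.11). The arm ratio kept its direction under all 10 alternatives (-0.39 to -0.20). The day 24 to day 0 ratio of miR-22-3p turned round, from 1.09 in RPM to 0.792 with TMM and 0.682 without miR-21a-5p in the totals; for miR-22-5p it moved to 0.568 and 0.488. With other scalings and tests the fitted day change of miR-22-3p was -0.23 to 0.39, on both sides of 0. Without single days it was -0.49 to 1.36 for miR-22-3p and -1.05 to 1.27 for miR-22-5p, the upper ends being without day 0. Entries called with day numbered 14, against 34 with the DESeq2 Wald test, 34 with no count filter, 9 summed per mature miRNA and 0 with limma (75 at an unadjusted p under 0.05, 103 in edgeR). Without single days they numbered 3 (day 6), 5 (day 17), 27 (day 24) and 75 (day 0). Calls between materials numbered 366. Without single libraries there were 196 to 389, the low end without calvaria libraries (215, 197 and 196 without calvaria 1, 2 and 3). There the filter still asked for 10 counts in 3 libraries, so entries that reached 10 counts only in calvaria were not tested. Entries tested numbered 466, 465 and 465, against 551 in the main fit. The part of this in the lower number of calls was not tested. miR-22-5p has only 78 to 121 counts in calvaria, which limits the arm ratio there.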
